A study of Rattus norvegicus with 5 samples.

Results

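The 10 genes described here are secreted or membrane-anchored regulators of Wnt signalling: the ligands Wnt5a and Wnt16, the R-spondins Rspo1 and Rspo3, and the antagonists Wif1, Sfrp2, Sfrp4, Dkk2, Dkk3 and Apcdd1. They are 10 of the 32623 gene rows of the series, matched by symbol, and each symbol stood on 1 row. They were picked because their levels in these same libraries differed between fibroblast or keratinocyte subtypes or between times, so every level and ratio of a member is a description and carries no test. They were measured by single-cell RNA sequencing in Sprague-Dawley rat skin, with 1 library each from day 7, day 14, day 28 and day 60 after irradiation and 1 from control skin. Per the study's methods, the rats were males 4 weeks old and the buttock skin received a single electron beam dose. The day 60 library carries the same kind of label but is not described in the study's text. With 1 library per time, irradiation cannot be told apart from animal, dissociation or library preparation.

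Wnt ligands bind Frizzled receptors, with or without the co-receptors Lrp5 and Lrp6, and in the canonical branch the signal spares beta-catenin from degradation so that it can act with TCF/LEF factors in the nucleus. R-spondins raise the response by keeping Frizzled receptors at the cell surface. Secreted frizzled-related proteins and Wif1 bind the ligands themselves, Dickkopf proteins act on the co-receptors, and Apcdd1 is a membrane protein that restrains the signal. In skin, Wnt signals between dermal fibroblasts and epithelium are known for hair follicle formation and cycling and for the upkeep of basal keratinocytes.

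RefSeq promoter windows (build GRCr8, 250 bases before the annotated start to 50 after it) were found for 7 of the 10 members: Wnt5a, Wnt16, Rspo1, Rspo3, Wif1, Sfrp2 and Apcdd1. The windows of the ligands and the R-spondins are printed, since Wnt5a, Rspo1 and Rspo3 were the members at least 2-fold higher than control in the fibroblasts of every irradiated library and Wnt16 was the ligand with the higher level in keratinocytes of control skin. Each is given 5′ to 3′ on the plus strand, which is the strand of all 4 genes, with every match to the motifs named below in capitals.
Wnt5a, chr16:3703415-3703714: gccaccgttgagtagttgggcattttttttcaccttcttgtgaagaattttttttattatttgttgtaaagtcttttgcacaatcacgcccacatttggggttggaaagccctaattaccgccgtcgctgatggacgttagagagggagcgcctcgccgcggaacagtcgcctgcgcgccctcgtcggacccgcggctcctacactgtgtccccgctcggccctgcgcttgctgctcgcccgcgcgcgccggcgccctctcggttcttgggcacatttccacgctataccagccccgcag
Wnt16, chr4:51786478-51786777: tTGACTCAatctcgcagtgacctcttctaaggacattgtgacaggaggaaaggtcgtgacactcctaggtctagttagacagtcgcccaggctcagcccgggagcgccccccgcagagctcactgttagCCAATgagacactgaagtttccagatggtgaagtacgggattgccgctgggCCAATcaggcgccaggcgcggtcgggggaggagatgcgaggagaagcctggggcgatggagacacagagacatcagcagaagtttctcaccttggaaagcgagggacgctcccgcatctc
Rspo1, chr5:142536040-142536339: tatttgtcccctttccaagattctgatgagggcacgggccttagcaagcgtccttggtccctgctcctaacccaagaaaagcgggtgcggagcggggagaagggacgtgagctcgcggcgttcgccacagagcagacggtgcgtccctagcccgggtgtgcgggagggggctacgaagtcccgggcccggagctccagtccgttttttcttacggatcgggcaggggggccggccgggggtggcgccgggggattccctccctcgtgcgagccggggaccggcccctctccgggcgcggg
Rspo3, chr1:30112279-30112578: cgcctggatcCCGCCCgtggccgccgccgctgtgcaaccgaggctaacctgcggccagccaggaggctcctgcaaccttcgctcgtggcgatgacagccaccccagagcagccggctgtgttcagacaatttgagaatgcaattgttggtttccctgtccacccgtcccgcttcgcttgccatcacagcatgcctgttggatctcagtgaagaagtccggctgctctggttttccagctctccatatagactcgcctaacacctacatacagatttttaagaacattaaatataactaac
The windows were searched on both strands for TCF/LEF sites spelled CTTTGAA with the variant CTTTGAT and also CTTTGTA with the variant CTTTGTT, for AP-1 sites spelled TGANTCA, for GC boxes spelled GGGCGG, and for the letters TATAAA and for CCAAT, and no matches overlapped. The Wnt16 window held 1 AP-1 match and 2 CCAAT matches, the Rspo3 window held 1 GC box on the minus strand, and the Wnt5a and Rspo1 windows held none. Over all 33469 rat promoter windows of the same length, 17.1% held a TCF/LEF match, 7.33% an AP-1 match, 33.1% a GC box, 14.2% TATAAA and 37.5% CCAAT. None of the 7 member windows held a TCF/LEF match or TATAAA, which says only that those letters are not in those windows. The share of G and C was 68.7% in the Rspo1 window, above 89.8% of all windows, and 55.3% in the Rspo3 window, against a median of 51.7%. The single-cell counts are read from the 3′ ends of transcripts and do not show which start is used in skin.

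The libraries held 6012 (day 14) to 12239 (day 7) barcodes with 70073362 to 139566348 counted molecules (unique molecular identifiers, UMIs), and 4370 to 11304 cells per library were kept after filters, 43408 in all. The day 14 library stood apart, with 25.5% of its barcodes above 20% mitochondrial UMIs, against 6.40% to 14.1% in the other libraries. Pairs of libraries shared 11 to 41 barcode sequences. A cell was placed in a class, and within fibroblasts and keratinocytes in a subtype, by a score over marker genes that include no member, and 40737 kept cells received a class. Such a gate is a range of a score and not a natural type: 1995 cells lay too close to a second class and 676 had too little of any marker list, and 2194 fibroblasts and 2743 keratinocytes received no subtype. Subtypes are called by their gate genes, and differences from the cell names of the study may come from these rebuilt gates. Levels are given as CPM, the UMIs of a gene scaled to a total of 1000000 UMIs over all cells of the group, with no length term because the counting is from the 3′ end. Intervals are exact 95% intervals and cover counting error only, not the difference between animals.

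Fibroblasts numbered 3300 in control, 6953 on day 7, 79 on day 14, 631 on day 28 and 617 on day 60. Among them, members at least 2-fold higher than control were 4 of 10 on day 7 (Wnt5a, Rspo1, Rspo3 and Apcdd1), where 6.50% of all 12483 genes with at least 50 UMIs in the pair of libraries were as much higher, and none was 2-fold lower, with 2.38% of all genes lower. The 2-fold line is a size and not a test. On day 28, 6 members were higher (Wnt5a, Rspo1, Rspo3, Wif1, Dkk3 and Apcdd1; 12.9% of all genes) and 1 was lower (Wnt16, on 2 UMIs; 6.22%). On day 60 the 4 members of day 7 were higher (12.4% of all genes) and none was lower (7.42%). On day 14, 5 members were higher (Wnt5a, Wnt16, Rspo1, Rspo3 and Dkk3; 14.9% of all genes) and 3 were lower (Sfrp2, Sfrp4 and Dkk2; 10.1%), but those values rest on 79 cells. When the 5 cells with the most UMIs of each gene were left out of each library, 0 were higher and 5 were lower. Wnt5a, Rspo3 and Sfrp2 then had no UMI left on day 14 and were set to 3 counts. Leaving out 5 cells weighs more on 79 fibroblasts than on 3300 in control, which in itself lowers such a ratio. The same holds to a lesser degree for the 631 and 617 fibroblasts of days 28 and 60. The members were chosen on these contrasts, so nothing is read from the counts. The median log2 ratio of the members was 0.68 on day 7, 0.69 on day 14, 1.41 on day 28 and 0.57 on day 60, beside 0.13, 0.06, 0.19 and 0.22 over all genes at those times. A count of 0 was set to 3 counts for ratios, which in day 14 fibroblasts is 5.23 CPM. A gene with no UMI there could thus count as higher, as did the Wnt gene Sfrp5, at 1.39 CPM in control. The day 14 share higher (14.9%) and both day 14 medians include ratios set in this way, whose number was not counted. With the libraries scaled by the median ratio over genes, the Wnt5a log2 ratio was 0.97 on day 7 and 0.95 on day 60, under 2-fold. The fibroblast markers summed to 71560 to 83980 CPM in the fibroblasts of the 5 libraries, with 5 of 5 markers detected in each. In the same cells the 12 keratinocyte markers summed to 1597 CPM in control and 1318 on day 7. That sum was 1404 on day 14 and 3407 on both day 28 and day 60.

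**Figure D1:**
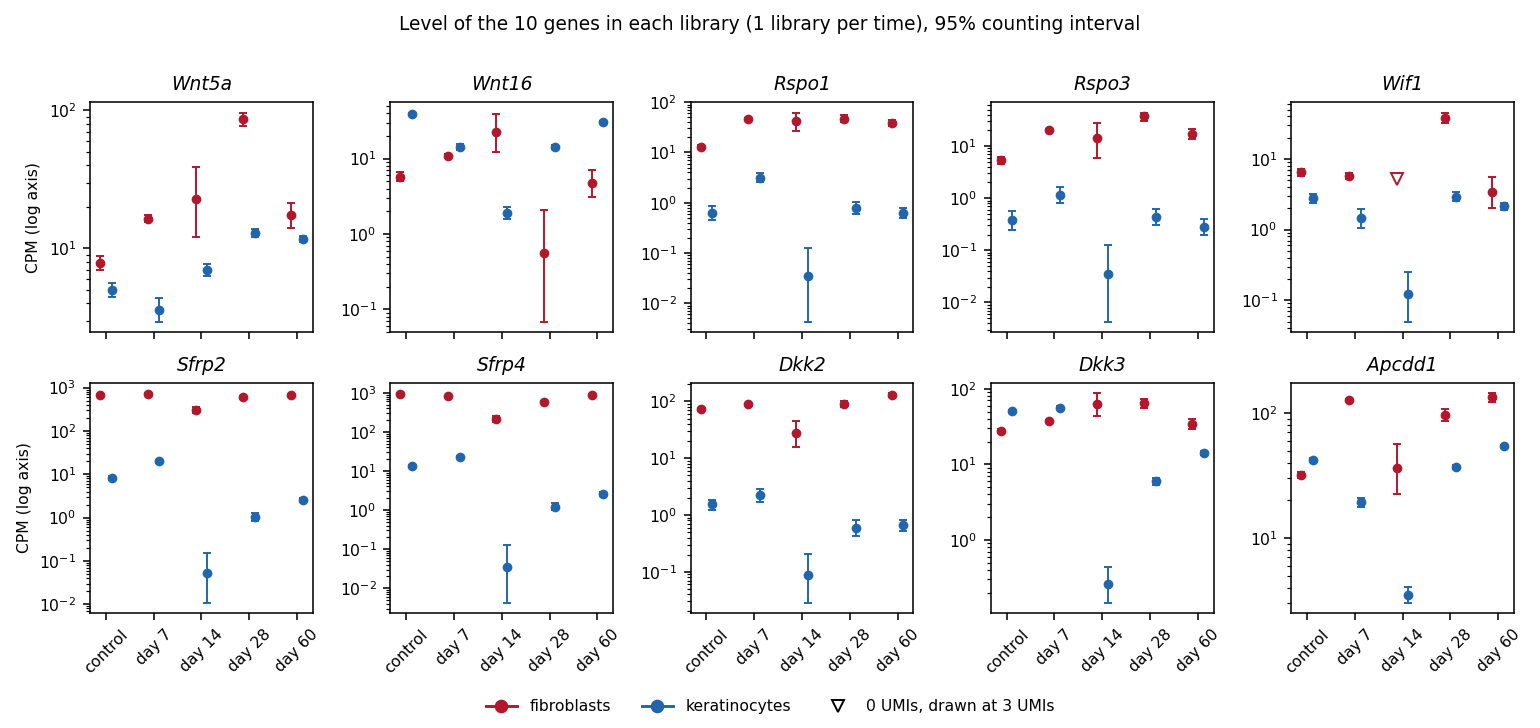
Level of each of the 10 genes (CPM, log axis) in fibroblasts (red) and keratinocytes (blue) of the 5 libraries, with exact 95% counting intervals; an open triangle marks 0 UMIs, drawn at 3 UMIs. Rspo1 lay between 39.0 and 47.1 in the fibroblasts of the irradiated libraries and at 12.6 in control, while Dkk3 in keratinocytes lay at 0.264 on day 14 and 50.1 in control.

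Wnt5a, a ligand best known for signalling without beta-catenin, stood at 7.85 CPM in control fibroblasts, 16.4 on day 7, 22.7 on day 14, 86.2 on day 28 and 17.5 on day 60. As measured, every irradiated library was above control: the ratio was 2.09 (95% interval 1.84 to 2.38) on day 7, 10.98 (9.33 to 12.9) on day 28 and 2.23 (1.74 to 2.83) on day 60. The day 28 value came from few cells. Of its 304 Wnt5a UMIs, 165 (54.3%) lay in 5 cells and 51 in a single cell, and 67 of 631 cells had any. Without the 5 cells of highest count in each library, the level was 41.0 on day 28, against 7.31 in control. After every fibroblast was thinned to 2000 UMIs, the share of cells with a Wnt5a UMI was 7.47% (5.37% to 10.1%) on day 28, against 1.69% (1.26% to 2.22%) in control, with 109 shallower cells on day 28 and 338 in control left out. Unthinned, the shares were 10.6% on day 28 and 6.76% in control, at median depths of 4270 and 11977 UMIs per cell. Immune cells, set beside fibroblasts for comparison, had a Wnt5a UMI in 0.544% of thinned cells on day 28, at a median depth of 2262 UMIs. In control they had it in 0 of 430 thinned cells, with an exact 95% upper limit of 0.854%, at a median depth of 4147 UMIs. Whether immune cells express Wnt5a was not tested. On day 60 the log2 ratio was 1.16 as measured and 0.78 without the 5 highest cells or 0.79 without the deepest cells, and on day 7 it was 1.06 as measured and 0.74 as the mean over cells, with each alternative under 2-fold. On day 14 the whole value was 13 UMIs in 4 cells, and the log2 ratio was -1.09 with at most 10% mitochondrial UMIs and -0.41 without the 5 highest cells.

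Wnt16, a ligand known from epidermis and bone, differed between fibroblast gates. In the whole class it stood at 5.72 CPM in control fibroblasts, 10.8 on day 7, 22.7 on day 14, 0.567 on day 28 and 4.81 on day 60. The level on day 7 was 1.89 times control (1.62 to 2.21). On day 28 only 2 UMIs were counted, 0.0991 of the control level (0.0119 to 0.362), and day 14 had 13 UMIs in 6 cells.
Fibroblasts gated on Slc26a7, Igfbp3 and Coch, with Wnt16 among their 10 leading genes, held 437 of the 723 Wnt16 UMIs of the class on day 7, in 250 of 6953 cells, and 71 of 218 in control, in 91 of 3300 cells. The level in that gate was 209 CPM on day 7 and 180 in control, a ratio of 1.16 (0.903 to 1.52), while in Myoc/Gpx3 fibroblasts it was 0.988 on day 7 and 3.70 in control. The Slc26a7/Igfbp3 gate had 11 cells and no Wnt16 UMI on day 28. The gate was shallow, with a median of 5720 UMIs per cell on day 7 and 3825 in control.

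Rspo1 and Rspo3, the R-spondins, were higher in the fibroblasts of each irradiated library than in control. Rspo1 stood at 12.6 CPM in control, 47.1 on day 7, 41.9 on day 14, 47.1 on day 28 and 39.0 on day 60. As measured, its 4 irradiated values were close to each other, at 3.09 to 3.73 times control. On day 7 the level rested on 3153 UMIs in 1223 cells, and 5.71% of those UMIs lay in the 5 highest cells. The 5 highest cells held 12 of 24 UMIs on day 14, 76 of 166 on day 28 and 36 of 203 on day 60. Without them the levels were further apart, at 44.6 on day 7, 23.3 on day 14, 26.3 on day 28 and 32.4 on day 60. Control then stood at 11.7, and the day 14 log2 ratio was 0.99, under 2-fold. Thinned to 2000 UMIs, 7.00% of fibroblasts had an Rspo1 UMI on day 7 (6.37% to 7.67%) and 2.43% in control (1.91% to 3.05%), with 880 shallower cells on day 7 left out, where unthinned shares were 17.6% on day 7 and 8.73% in control. In immune cells, thinned, those shares were 0.945% on day 7 and 0.233% in control.
Rspo3 stood at 5.28 CPM in control fibroblasts, 20.3 on day 7, 13.9 on day 14, 36.9 on day 28 and 17.1 on day 60. Its ratio to control was 3.85 (3.32 to 4.48) on day 7, 6.99 (5.56 to 8.75) on day 28 and 3.24 (2.50 to 4.18) on day 60. The later values were again carried by few cells: 81 of 130 UMIs on day 28 and 39 of 89 on day 60 lay in 5 cells. Without those cells the levels were 14.3 on day 28 and 9.69 on day 60, against 4.37 in control. With the stricter gate margin the log2 ratio on day 60 was 0.42, under 2-fold, against 1.70 as measured.

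Among the antagonists, Apcdd1 had the largest fibroblast ratio on days 7 and 60. It stood at 32.0 CPM in control, 128 on day 7, 36.6 on day 14, 96.7 on day 28 and 133 on day 60. The ratio was 3.99 (3.75 to 4.24) on day 7, 3.02 (2.67 to 3.41) on day 28 and 4.16 (3.78 to 4.57) on day 60, and on day 14, on 21 UMIs, 1.14 (0.705 to 1.76). Of the day 60 UMIs, 39.3% lay in 5 cells, and without the 5 highest cells of each library the levels were 122 on day 7, 61.8 on day 28 and 82.4 on day 60, against 29.2 in control. Wif1, which sequesters Wnt ligands, stood at 6.43 in control, 5.73 on day 7, 0 on day 14, 38.3 on day 28 and 3.46 on day 60. Only day 28 was above control, at 5.95 times (4.79 to 7.37), and 79 of its 135 UMIs lay in 5 cells. The 0 of day 14 came from 573543 UMIs in all, and 3 counts there would be 5.23 CPM, so a level just below that of control could not have been told from it at that depth.
Sfrp2 and Sfrp4, the secreted frizzled-related proteins, gave the most UMIs of the 10 genes in fibroblasts of every library. Sfrp2 stood at 661 CPM in control fibroblasts, 731 on day 7, 302 on day 14, 613 on day 28 and 663 on day 60. Sfrp4 stood at 958 in control, 844 on day 7, 216 on day 14, 597 on day 28 and 884 on day 60. On days 7, 28 and 60 the ratios to control were 0.928 to 1.10 for Sfrp2 and 0.624 to 0.923 for Sfrp4. On day 14, 155 of 173 Sfrp2 UMIs came from 4 cells of the Cpxm2/Fmod gate.
Dkk2 and Dkk3 are Dickkopf proteins, of which Dkk2 binds the co-receptors and Dkk3 is an outlying relative. Dkk2 stood at 72.8 CPM in control fibroblasts, 89.6 on day 7, 27.9 on day 14, 89.9 on day 28 and 129 on day 60, the last 1.77 times control (1.62 to 1.93). Dkk3 stood at 27.5 in control, 37.3 on day 7, 62.8 on day 14, 64.1 on day 28 and 34.2 on day 60. Its ratio on day 28 was 2.33 (2.01 to 2.69), a log2 ratio of 1.22, which was 0.94 as the mean over cells and 0.96 without the 5 highest cells, under 2-fold.

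The members differed by fibroblast gate, which could be read on day 7 and in control, the libraries in which 6 gates held at least 50 cells. In both, the antagonists Sfrp2, Sfrp4 and Dkk2 were highest in Cpxm2/Fmod fibroblasts. The study lists Sfrp2 beside Cpxm2 for such cells, so its level there is not independent of the choice of gate, and Sfrp2 and Dkk2 were among the 10 leading genes of the gate. Sfrp2 there stood at 5741 CPM on day 7 and 4979 in control, against 449 on day 7 and 688 in control in Myoc/Gpx3 cells. Sfrp4 there stood at 1828 on day 7 and 3423 in control, 0.534 times control (0.518 to 0.551), while Sfrp2 was 1.15 times control (1.13 to 1.18). Dkk2 there stood at 525 on day 7 and 402 in control. On day 60 the gate held 53 cells, with Sfrp2 at 7045, Sfrp4 at 3179 and Dkk2 at 910 CPM.
The ligand Wnt5a, the R-spondins and Apcdd1 had another pattern. Each was highest in the Cyp26b1/Crabp1 or the Slc26a7/Igfbp3 gate on day 7 and in control. The Cyp26b1/Crabp1 gate was led by Igfbp2, Slpi and F13a1 and had Apcdd1 among its 10 leading genes, with 1 of its own 4 markers there. Apcdd1 stood at 832 CPM on day 7 and 317 in control in Cyp26b1/Crabp1 cells, a ratio of 2.62 (2.36 to 2.92). In Slc26a7/Igfbp3 cells it stood at 455 on day 7 and 119 in control, a ratio of 3.82 (2.85 to 5.23). In the large Myoc/Gpx3 gate the day 7 level was 21.5 and the control level 17.96, a ratio of 1.20 (1.03 to 1.41). Rspo1 stood at 267 on day 7 and 40.6 in control in Slc26a7/Igfbp3 cells (6.57 times, 4.01 to 11.6), and at 204 on day 7 and 112 in control in Cyp26b1/Crabp1 cells (1.83 times, 1.53 to 2.20). Rspo3 was 5.01 times control (3.48 to 7.48) in Cyp26b1/Crabp1 cells, at 127 on day 7 against 25.4 in control, and 3.51 times (2.09 to 6.36) in Slc26a7/Igfbp3 cells. In Myoc/Gpx3 cells Rspo1 was 1.87 times control (1.48 to 2.39) and Rspo3 0.892 times (0.546 to 1.51), on 64 UMIs on day 7 and 23 in control. Rspo1 lay above control on day 7 in all 6 gates, with ratios of 1.83 to 6.57 whose intervals did not include 1.
Wnt5a stood at 93.6 in Cyp26b1/Crabp1 cells on day 7 and 61.8 in control (1.52 times, 1.19 to 1.96). Dkk3 ranged over 24.6 to 94.4 over the 6 gates on day 7 and 10.2 to 72.4 in control.

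**Figure D2:**
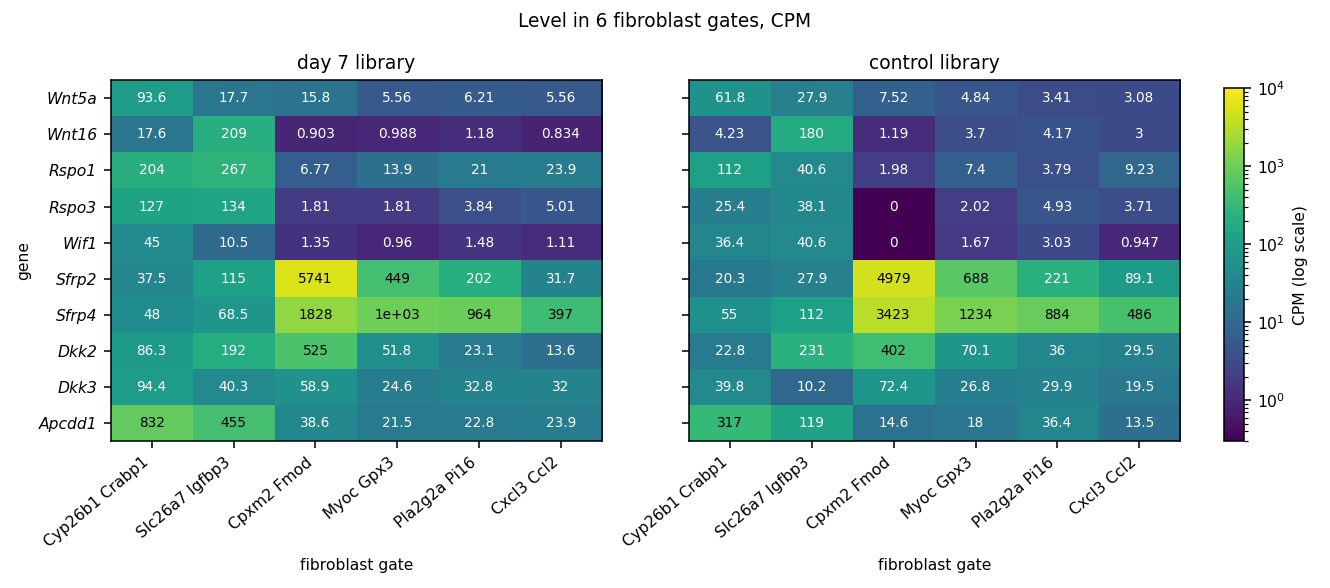
Level of the 10 genes (rows, CPM, colour on a log scale) in the 6 fibroblast gates with at least 50 cells (columns) on day 7 and in control. Sfrp2, Sfrp4 and Dkk2 are highest in the Cpxm2/Fmod column of both libraries, and Apcdd1, Rspo1, Rspo3 and Wnt5a in the Cyp26b1/Crabp1 or Slc26a7/Igfbp3 columns, with Apcdd1 at 832 on day 7 and 317 in control in Cyp26b1/Crabp1 cells.

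The mix of fibroblast gates differed between the day 7 and control libraries. Myoc/Gpx3 cells were 52.5% of fibroblasts on day 7 and 31.2% in control, Cxcl3/Ccl2 cells 5.91% on day 7 and 30.3% in control, and Cyp26b1/Crabp1 cells 7.16% on day 7 and 3.15% in control. With the day 7 level of each gate weighted by the gate's share of UMIs in control, the ratio to control was 2.63 for Rspo1, 2.13 for Apcdd1, 2.003 for Rspo3 and 1.35 for Wnt5a, where the measured ratios were 3.73, 3.99, 3.85 and 2.09. Wnt16 stood at 0.968 under that weighting and 1.89 as measured, and Wif1 at 0.425 and 0.890. The weighting covers the 6 gates with 50 cells and takes all other fibroblasts together as 1 further part. That part joins cells without a subtype and the gate on Edn3 and Cd24, which is not held at its own control share. The Edn3 and Cd24 gate held 104 of the 245 control Wif1 UMIs and 0 of those on day 7. Its change is therefore within the weighted Wif1 ratio. The weighted ratios of Sfrp2, Sfrp4, Dkk2 and Dkk3 lay between 0.783 and 1.27. The other irradiated libraries had too few gates with 50 fibroblasts for the same weighting.

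**Figure D3:**
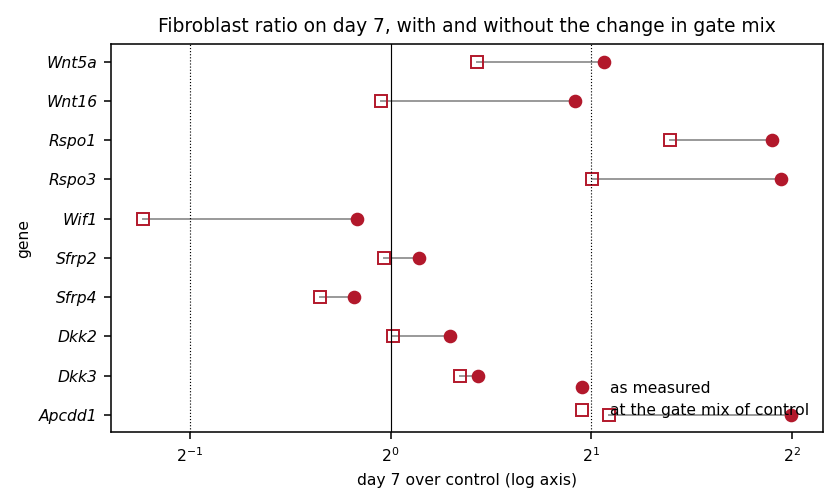
Ratio of the day 7 to the control level in fibroblasts for each gene (log axis), as measured (filled circles) and with the gates weighted as in control (open squares); the solid line marks 1 and the dotted lines 0.5 and 2. The squares of Rspo1, Apcdd1 and Rspo3 lie at 2.63, 2.13 and 2.003, and that of Wnt5a at 1.35.

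Gates under 50 cells are given as counts. On day 28, 182 of 304 fibroblast Wnt5a UMIs lay in 34 Cyp26b1/Crabp1 cells. Cells gated on Edn3, Cd24, Corin, Sox18, Alpl and Hhip numbered 21 on day 28 and 25 in control. They held 69 of the 135 fibroblast Wif1 UMIs on day 28 and 104 of 245 in control, and Wif1 was among the 10 leading genes of the gate. On day 60, 15 Cyp26b1/Crabp1 cells held 162 and 13 Slc26a7/Igfbp3 cells held 151 of the 693 fibroblast Apcdd1 UMIs.

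Keratinocytes numbered 4894 in control, 1843 on day 7, 2146 on day 14, 4859 on day 28 and 6664 on day 60. In them, 3 members were at least 2-fold higher on day 7 (Rspo1, Rspo3 and Sfrp2; 7.16% of all genes) and 2 were lower (Wnt16 and Apcdd1; 5.71%). On day 14 none of the 8 members with 50 UMIs in the pair was higher (6.95% of all genes) and 7 were lower (33.4%), all but Wnt5a. On day 28 Wnt5a was higher (5.83% of all genes) and 5 were lower (Wnt16, Sfrp2, Sfrp4, Dkk2 and Dkk3; 17.4%), and on day 60 Wnt5a was higher (3.39%) and 4 were lower (Sfrp2, Sfrp4, Dkk2 and Dkk3; 17.0%). The median log2 ratio of all genes was 0.11 on day 7, -0.51 on day 14, -0.24 on day 28 and -0.20 on day 60, and that of the members 0.35, -4.43, -0.77 and -0.40 at those times.
Of these, Rspo1, Rspo3, Sfrp2, Sfrp4 and Dkk2 stayed at or near the level of the same libraries' immune cells. Sfrp2 stood at 8.15 CPM in control keratinocytes, 19.9 on day 7, 0.0529 on day 14, 1.04 on day 28 and 2.56 on day 60, beside 12.9, 23.1, 0, 1.53 and 2.997 in immune cells. The summed level of the 5 fibroblast markers moved in the same direction up to day 28, but not from day 28 to day 60. That sum was 1251 CPM in control keratinocytes, 2195 on day 7, 13.7 on day 14, 210 on day 28 and 185 on day 60, all 5 markers being detected in each. In immune cells it was 1609, 3157, 21.5, 323 and 260 in the same order, with 3 to 5 of the 5 markers detected. Single cells weighed on some of these values: of the 94 Rspo1 UMIs in keratinocytes on day 7, 51 lay in 5 cells, and of the 318 Sfrp2 UMIs on day 60, 194 lay in 5 cells and 116 in a single cell. The part of fibroblast RNA in the keratinocyte values of these 5 genes was not tested, and no expression in keratinocytes is read from them.

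**Figure D4:**
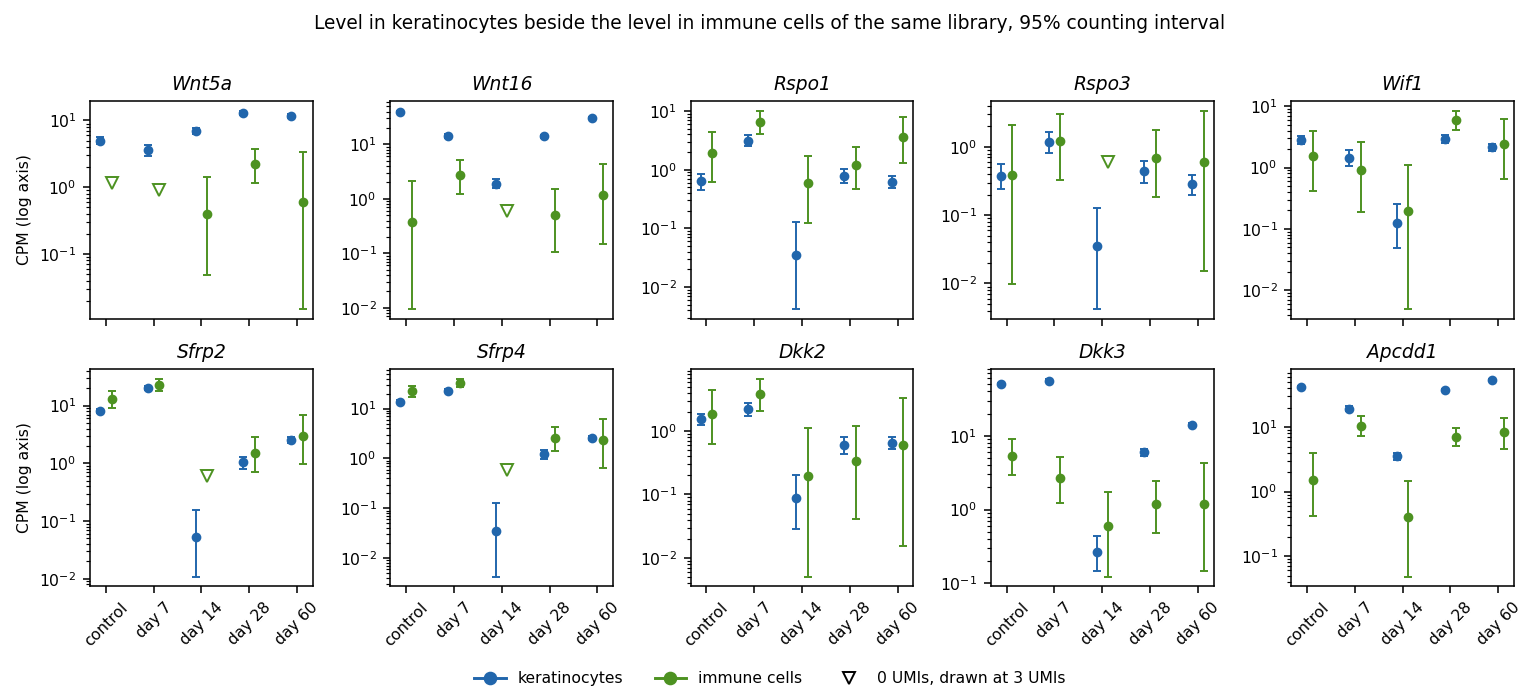
Level of each gene (CPM, log axis) in keratinocytes (blue) and immune cells (green) of the 5 libraries, with exact 95% counting intervals and open triangles for 0 UMIs, drawn at 3 UMIs. Sfrp2 rises and falls at the same times in both classes, and Sfrp4 does so up to day 28. From day 28 to day 60 Sfrp4 goes from 1.22 to 2.58 in keratinocytes and from 2.55 to 2.40 in immune cells. Wnt16, Dkk3 and Apcdd1 lie well above immune cells in control keratinocytes (39.1, 50.1 and 41.9).

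The level of Wnt5a, Wnt16, Dkk3 and Apcdd1 was higher in keratinocytes than in immune cells of the same library, except for Dkk3 on day 14 (0.264 CPM in keratinocytes and 0.597 in immune cells). Wnt16 stood at 39.1 CPM in control keratinocytes, 14.2 on day 7, 1.90 on day 14, 14.2 on day 28 and 30.6 on day 60. It was 0.363 times control (0.327 to 0.403) on day 7, 0.0487 times (0.0398 to 0.0591) on day 14 and 0.782 times (0.743 to 0.823) on day 60. Its levels were lowest on day 14 and nearer to control on day 60. Among gates, Wnt16 was highest in Krt5/Krt14 or Mki67/Top2a cells of each library other than day 60, where Krt15/Postn cells had 48.1. Krt5/Krt14 cells had 49.1 in control, 25.6 on day 7, 6.52 on day 14, 20.4 on day 28 and 33.5 on day 60. Krt1/Krt10 cells had 14.9 in control, 0.809 on day 14, 2.41 on day 28 and 8.35 on day 60.
Wnt5a stood at 4.99 in control keratinocytes, 3.59 on day 7, 6.98 on day 14, 12.9 on day 28 and 11.7 on day 60. Its ratio to control was 2.59 (2.28 to 2.96) on day 28 and 2.34 (2.07 to 2.65) on day 60, and it was spread over cells: 2.97% of its UMIs on day 28 lay in the 5 highest cells and 690 of 4859 cells had any. The level was highest in the Krt5/Krt14 or the Mki67/Top2a gate of each library. In Krt5/Krt14 cells it was 5.79 in control, 7.66 on day 7, 12.8 on day 14, 18.9 on day 28 and 15.6 on day 60. Every irradiated library was above control as measured, but the interval of the day 7 ratio (1.32, 0.971 to 1.79) included 1. Thinned to 2000 UMIs, 2.65% of keratinocytes (2.20% to 3.16%) had a Wnt5a UMI on day 28 and 1.04% (0.771% to 1.37%) in control, where the unthinned shares were 14.2% on day 28 and 4.72% in control.
Dkk3 stood at 50.1 CPM in control keratinocytes, 56.1 on day 7, 0.264 on day 14, 5.94 on day 28 and 14.1 on day 60. On day 14 it had 15 UMIs in 2146 cells, 0.00528 times control (0.00295 to 0.00872). It stood highest in Krt15/Postn cells, a gate of 2 genes with Dkk3 among its 10 leading genes, with 249 in control, 131 on day 7, 152 on day 28 and 109 on day 60. It followed in Lhx2/Sox9 cells with 71.0 in control, 91.2 on day 28 and 74.7 on day 60. Krt5/Krt14 cells had 25.3 in control, 49.7 on day 7, 0.644 on day 14, 4.07 on day 28 and 9.92 on day 60. The Krt15/Postn gate held 902 cells in control, 607 on day 7, 6 on day 14, 80 on day 28 and 386 on day 60. With gates weighted as in control, the Dkk3 ratio was 0.509 on day 28 and 0.520 on day 60, where the measured ratios were 0.119 and 0.282.
Apcdd1 stood at 41.9 CPM in control keratinocytes, 19.2 on day 7, 3.51 on day 14, 37.1 on day 28 and 54.2 on day 60. The day 7 level was 0.459 times control (0.419 to 0.502) in keratinocytes and 3.99 times control in fibroblasts, and the difference between both classes was not tested. In Krt79/Cst6 cells it stood at 52.6 in control, 27.0 on day 7, 2.26 on day 14, 120 on day 28 and 158 on day 60. Lhx2/Sox9 cells had 32.4 in control, 91.2 on day 28 and 123 on day 60, and Krt5/Krt14 cells 47.6 on day 60 and 47.8 in control.
Keratinocytes gated on S100a8 and S100a9, which encode the subunits of calprotectin, numbered 718 of 2146 on day 14 and 173 of 4859 on day 28. On day 14 they had 0.238 CPM of Wnt16, 1.07 of Apcdd1 and 4.68 of Wnt5a, with 0 Dkk3 UMIs, where 3 counts would be 0.119 CPM. Wif1 in keratinocytes as a whole stood at 0.123 to 2.93 CPM over the libraries, beside 0.199 to 5.95 in immune cells. On day 28 it reached 22.2 in Krt79/Cst6 cells, on 24 UMIs, and 14.8 in Lhx2/Sox9 cells, on 11.

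**Figure D5:**
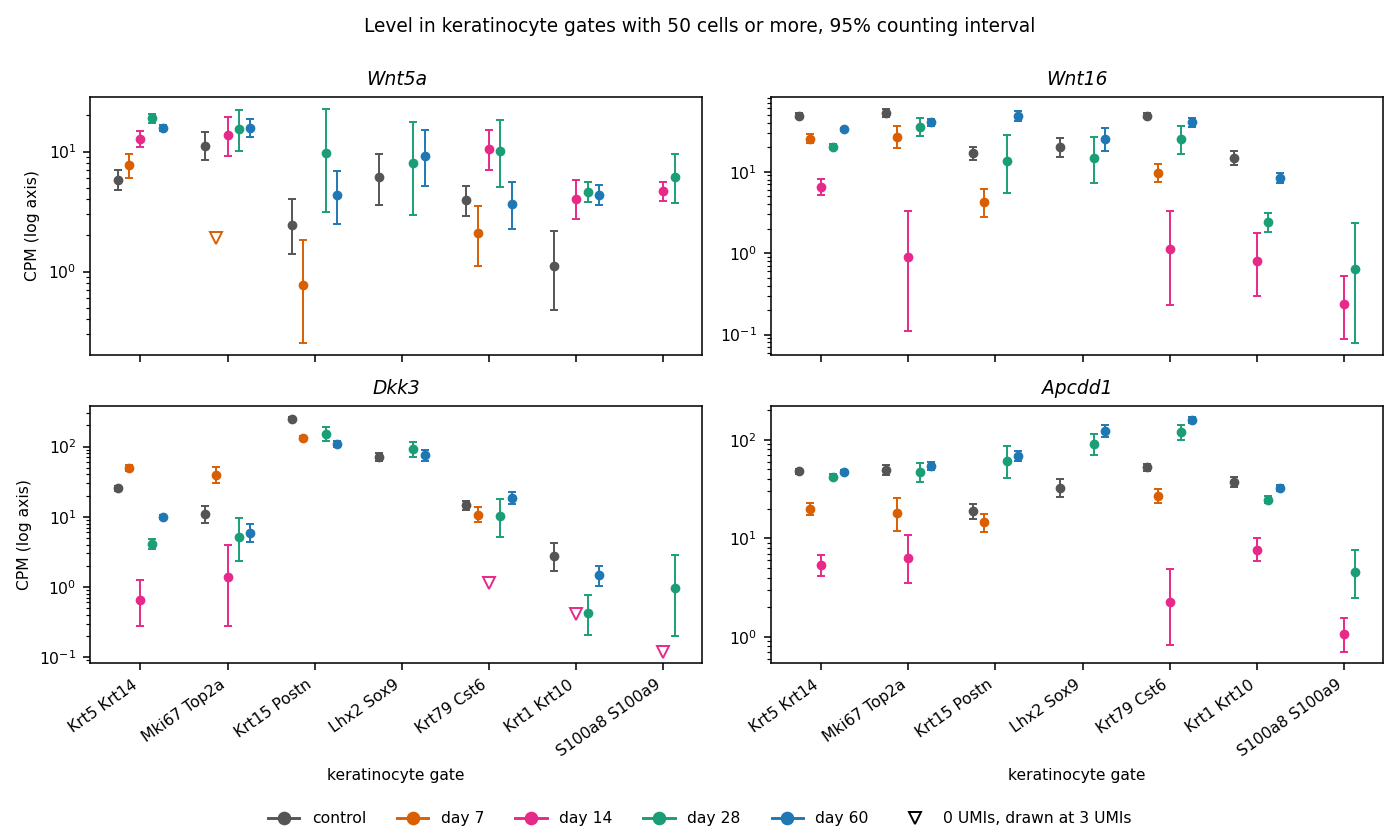
Level of Wnt5a, Wnt16, Dkk3 and Apcdd1 (CPM, log axis) by keratinocyte gate and library, for gates with at least 50 cells, with exact 95% counting intervals and open triangles for 0 UMIs, drawn at 3 UMIs. Dkk3 is highest in Krt15/Postn cells (249 in control), and among Krt5/Krt14 cells the day 14 points of Wnt16, Dkk3 and Apcdd1 are the lowest.

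In other cell classes the members were mostly low, but some lay above the level of control fibroblasts. Endothelial Rspo3 stood at 16.8 CPM in control, where fibroblasts had 5.28. It stood at 8.64 on day 7, 1.69 on day 14, 0 on day 28 and 3.73 on day 60, on 0 to 25 UMIs. On day 28, 3 counts would be 7.13 CPM. As measured, these levels were below control, where those of fibroblasts were above it. The endothelial control level rested on 17 UMIs. The intervals of the ratios on day 7 (0.515, 0.267 to 1.02) and day 60 (0.222, 0.00532 to 1.42) included 1. Endothelial cells had 15.8 CPM of Apcdd1 in control, 67.7 on day 7, 16.0 on day 14, 80.8 on day 28 and 11.2 on day 60, on 3 to 196 UMIs. Their Dkk2 stood at 7.89 in control, 7.25 on day 7, 19.4 on day 14, 49.9 on day 28 and 18.7 on day 60, while the fibroblast markers in them summed to 2248 CPM in control, 2317 on day 7, 56.4 on day 14, 199.7 on day 28 and 231 on day 60. Mural cells, the pericytes and smooth muscle of vessels, had Wnt5a at 17.8 in control, 14.9 on day 7, 14.2 on day 14, 38.0 on day 28 and 2.49 on day 60, on 7 to 87 UMIs. Control fibroblasts had 7.85 of Wnt5a. Mural Wif1 stood at 14.8 in control, 0.248 on day 7, 0.886 on day 14, 20.1 on day 28 and 1.78 on day 60. Those values rest on 39 UMIs in control, 1 on day 7, 2 on day 14, 46 on day 28 and 5 on day 60. How far single mural cells carried them was not tested.

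Across the 76 groups of class or subtype and library with at least 50 cells, the genes most like each member were found by Pearson correlation of log2(CPM + 10) among 6530 genes. The groups share cells, libraries and depth, so the values are descriptions. Sfrp4 was the gene most like Sfrp2 (r = 0.95), with Sim1 (0.94) and Itga11 (0.93) next, and Itga11, Islr and Igfbp6 were most like Sfrp4 (0.98, 0.97 and 0.96). Rspo1 was most like Ptgfr (0.91), Rspo3 (0.87) and AA926063 (0.86), and Rspo3 most like Rspo1, Ptgfr (0.82) and Tnn (0.78). Dkk2 was most like Pappa2 (0.91), followed by Sfrp2 (0.86). Dkk3 was most like Fzd2, a Wnt receptor (0.86), then Pdzrn3 (0.77) and Boc (0.76). Wnt16 was most like Fgfr2 (0.81), the ligand gene Wnt10a (0.79) and Prlr (0.72). Wnt5a and Wif1 were each most like Apcdd1 (0.67 and 0.68), with Wif1 and Pth1r (both 0.65) next to Wnt5a and Nrg2 (0.67) and Wnt5a next to Wif1. Apcdd1 was most like Rin2 (0.70), Crabp1 (0.69) and Wif1. Gate markers were not left out of the search, and Crabp1 is on the marker list of the Cyp26b1/Crabp1 gate, so its likeness is not independent of the gates.

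Of a list of 71 other Wnt pathway genes, 68 were in the files. Among those with at least 50 fibroblast UMIs in the pair of libraries, 5 of 44 were at least 2-fold higher than control on day 7, 10 of 34 on day 14, 18 of 37 on day 28 and 14 of 37 on day 60. Those 2-fold lower were 1, 3, 1 and 1 at those times, and the shares over all genes are those given for fibroblasts above (6.50%, 14.9%, 12.9% and 12.4% higher). The median log2 ratio of these list genes was 0.31 on day 7, 0.46 on day 14, 0.91 on day 28 and 0.75 on day 60. The 10 list genes higher on day 14 include Sfrp5, at 0 CPM there and 1.39 in control. Its 0 was set to 3 counts, which in that library is 5.23 CPM. The day 14 median holds such values too, as for Wnt5b and Axin2, both at 0 CPM there. Genes are named below from the 21 that reached 20 CPM in the fibroblasts of at least 1 library, of which 13 did so in control, so a gene could enter through an irradiated library alone and one lower than control at a low level could not. An example outside the rule, chosen after its values were seen, is the ligand gene Wnt2, at 6.70 CPM in control, 5.34 on day 7, 1.74 on day 14, 1.42 on day 28 and 0.961 on day 60. The highest ratios on day 7 were those of Nkd2, a feedback inhibitor (25.2 against 11.6 CPM in control), and Lef1, a nuclear partner of beta-catenin (4.58 against 2.28), and the lowest were those of Sostdc1 (3.45 against 6.54) and Apc (30.6 against 34.0). On day 28 Lef1 stood at 22.4 against 2.28 in control and the antagonist Sostdc1 at 27.2 against 6.54, while the receptor Ryk (32.9 against 41.0) and the transcription factor Tcf7l2 (40.8 against 50.4) had the lowest ratios. On day 14 the highest were Sfrp1, a frizzled-related antagonist (952 against 223), and Lef1 (8.72 against 2.28), and the lowest Ryk (22.7 against 41.0) and Wnt11 (13.9 against 21.6). The day 14 values rest on 79 cells, in which 3 counts are 5.23 CPM, so those of Lef1 and Wnt11 are few UMIs. On day 60 the ligand Wnt4 (22.1 against 8.66) and Dact1 (38.4 against 15.7) were highest, and Apc (23.1 against 34.0) and Kremen1 (33.8 against 34.0) lowest. Keratinocytes had 118.5 CPM of Wnt4 on day 60 and 79.7 in control. The keratinocyte markers in fibroblasts summed to 3407 CPM on day 60 and 1597 in control. The part of keratinocyte RNA in the fibroblast Wnt4 values was not tested.
In keratinocytes, list genes at least 2-fold lower were 9 of 48 on day 7, 34 of 47 on day 14, 20 of 49 on day 28 and 20 of 50 on day 60, where 5.71%, 33.4%, 17.4% and 17.0% of all genes were as much lower. Those higher were 3, 1, 1 and 3 at those times (7.16%, 6.95%, 5.83% and 3.39% of all genes). The genes named are from the 19 that reached 20 CPM in at least 1 library, 15 of them in control. Wnt3, an epidermal ligand, stood at 29.9 CPM in control, 11.5 on day 7, 13.2 on day 14, 70.4 on day 28 and 88.9 on day 60, and was the lowest on day 7 and the highest on days 28 and 60. The receptor Fzd10 came second on day 28 (20.6 against 10.7 in control) and day 60 (22.8 against 10.7). Sfrp1 (349 against 197) and Fzd2 (35.1 against 21.4) had the highest ratios on day 7, with Wnt4 second lowest (41.8 against 79.7). On day 14 Wnt4 (125 against 79.7) and Lrp5 (23.7 against 17.3) were highest and Wnt6 (1.08 against 18.5) and Fzd2 (1.45 against 21.4) lowest. Fzd2 (3.88) and Bambi (10.2) were lowest on day 28, and Bambi (10.3) and Tcf7l2 (18.8) on day 60, where control keratinocytes had 21.4 of Fzd2, 40.1 of Bambi and 54.8 of Tcf7l2.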

How the data were processed

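Per the labels, single cells of rat skin were captured with 10x Genomics 3′ chemistry. The submitters' processing notes name Cell Ranger 5.0.0, STAR, Seurat 3.1.1 and Rnor_6.0 as genome build. The authors deposited UMI counts for each barcode and gene, not normalized. Rows sharing a symbol were summed (32623 rows, 30017 symbols).

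Barcodes were kept from 500 UMIs and 300 genes upwards, with a ceiling of 20% mitochondrial UMIs. No doublet caller was run. A cell's score for a class or subtype was the mean over its markers of the level per cell, divided by the 90th percentile of cells with the gene and capped at 1. The class or subtype with the highest score was taken if the score reached 0.05 (0.1 for subtypes) and led the next by 0.05, so cells near a second class were left out, and whether this removed doublets was not tested. These thresholds were set after the data were seen. The members and all gene lists were chosen with earlier results of these data known.

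UMIs were summed per gate and library and scaled to CPM. Sums carry exact Poisson, ratios exact conditional binomial and shares Clopper-Pearson 95% intervals. A count of 0 was set to 3 counts for ratios. With 1 library per group there was no test. Named genes are the 10 members in every gate with 50 cells, the 2 highest and 2 lowest ratios of other Wnt genes at 20 CPM, and the 3 genes most like each member, of which 1 is not reported here. Smaller gates and single cells were added after their values were seen. The scripts were tested on simulated data. Alternatives were 10% mitochondrial UMIs, median-ratio scaling, totals without mitochondrial and ribosomal protein genes, the mean over cells, a gate margin of 0.1, no cells above the 95th percentile of depth and 2000 UMIs per cell. Weighting gates as in control and leaving out the 5 cells with the most UMIs were added after seeing the data. Python 3.11.15 with numpy 2.4.6, scipy 1.17.1, pandas 2.3.3 and matplotlib 3.10.9 was used.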

Additional observations from a re-analysis of the deposited data

Results flagged for a closer look

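For members that reached 20 CPM in at least 1 library of both classes, 4 ratios lay past 2-fold in opposite directions in fibroblasts and keratinocytes of the same library. The difference between the classes was not tested in any of them, since each time is 1 library.

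Apcdd1 on day 7 had a log2 ratio to control of 1.99 in fibroblasts and -1.12 in keratinocytes, 3.12 apart. As the mean over cells its keratinocyte log2 ratio was -0.94, under 2-fold. Dkk3 on day 28 had 1.22 in fibroblasts and -3.07 in keratinocytes, 4.30 apart. Krt15/Postn cells, the gate with the highest Dkk3 level, were 1.65% of keratinocytes on day 28 and 18.4% in control. With gates weighted as in control, the keratinocyte log2 ratio was -0.97, under 2-fold. The fibroblast log2 ratio was 0.94 as the mean over cells and 0.96 without the 5 highest cells, also under 2-fold. The cause was not tested. Dkk3 on day 14 had 1.19 in fibroblasts and -7.56 in keratinocytes, 8.76 apart, with 36 fibroblast UMIs and 15 keratinocyte UMIs. Without the 5 highest cells its fibroblast log2 ratio on day 14 was 0.35. Wnt16 on day 14 had 1.99 in fibroblasts and -4.36 in keratinocytes, 6.35 apart, with 13 UMIs in 79 fibroblasts. In fibroblasts Wnt16 reached 20 CPM only in that library, and without the 5 highest cells its fibroblast log2 ratio was -1.46.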

How the results depend on the processing

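Of 239 summary counts recomputed, 224 stayed within 1.5 times the reported count, and of 399 ratios past 2-fold, 371 stayed past 2-fold in the same direction. In fibroblasts, members 2-fold lower were 1 on day 60 with median-ratio scaling, with 2000 UMIs per cell and without the 5 cells, 2 on day 60, 1 on day 7 and 1 on day 14 with the mean over cells, and 1 on day 7 at the control gate mix (0 on days 7 and 60 and 3 on day 14 as reported). On day 14, without the 5 cells with the most UMIs, 0 were higher and 5 lower. In keratinocytes, members 2-fold higher on day 28 were 4 with the mean over cells, 4 at the control mix and 2 without the 5 cells (1 as reported), those higher on day 60 were 0 at the control mix (1 as reported), and those lower on day 7 were 1 with the mean over cells (2 as reported). With the mean over cells, 6 of 10 members kept their highest keratinocyte gate in control. Ratios that changed direction were Wnt5a in day 14 fibroblasts (log2 -1.09 at 10% mitochondrial UMIs and -0.41 without the 5 cells, where no UMI remained and 3 counts were set), Wnt16 there (-1.46 without the 5 cells) and Dkk2 in day 28 keratinocytes (0.42 with the mean over cells). The cause was not tested. Under median-ratio scaling Wnt5a in fibroblasts had a log2 ratio of 0.97 on day 7 and 0.95 on day 60, under 2-fold. No paired analysis was possible because each group holds 1 library and the labels carry no replicate numbers. The number of libraries, and in day 14 fibroblasts the number of cells, limits every value.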
